A study of Bos taurus with 22 samples.

Results

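The genes described here encode the protein folding and secretion machinery of the endoplasmic reticulum (ER) and the stress responses that regulate it. They were chosen by name, as 36 genes of the ER chaperones, disulfide enzymes, translocation and glycosylation complexes, stress sensors and targets of the transcription factor ATF4. Of these, 30 were carried by 46 of the 24016 bovine probe sets, each of which had the gene as its single symbol in the probe annotation. XBP1, ATF6, ASNS, PDIA6, ERP44 and RPN1 had no such probe set and are not analysed here. A probe set was tested when its mean over all arrays reached the 40th percentile of the array, which kept 32 probe sets of 27 genes (14410 probe sets and 6984 of 9155 genes on the whole array), and the brightest of them stood for its gene.

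Proteins bound for secretion, the cell membrane or the lysosome enter the ER through the Sec61 channel. There they lose their signal peptide, receive N-linked sugars, fold with the help of chaperones and form disulfide bonds. When unfolded protein accumulates, sensors in the ER membrane start the unfolded protein response. Its ATF6 and XBP1 branches raise chaperones and degradation factors, and its PERK branch raises ATF4, which also responds to amino acid shortage. In adipocytes the same machinery makes adipokines, lipoprotein lipase and matrix proteins.

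Subcutaneous white adipose tissue was taken from a dorsal depot of the periischeum region of 11 Holstein heifers, 30 days before (prepartum) and 14 days after (postpartum) their first calving, which gave 11 arrays per group. All animals were raised on 1 farm, calved at 24 to 28 months of age and received no dietary treatment. Before calving they ate haylage, hay and some concentrate freely. Each cow served as its own control by the number in the sample titles. Values are given as log2(signal + 7.78), called log2 values below, and a change is the postpartum minus the prepartum log2 value of a cow.

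The tissue is a mixture, so fewer cells of a type and less RNA per cell cannot be told apart. Of 15 adipocyte markers 11 were measured, all above the filter and none at a signal of 0, and their summed signal ran from 14.6 to 15.1 on a log2 scale prepartum and from 14.0 to 15.0 postpartum. Of them 3 fell past the test (median change of the list -0.21). Each gene was centred on its median over the arrays, and the median of 13 skeletal muscle markers then reached 8.51 log2 units for cow 384 postpartum, 7.67 for cow 387 prepartum, 4.51 for cow 386 postpartum and 3.66 for cow 384 prepartum. Of 10 plasma and B cell markers, which mark cells of high secretory load, 5 were measured, none at a signal of 0, and 2 passed the filter (summed log2 signal 7.73 to 10.5 prepartum and 6.79 to 10.6 postpartum). All 10 macrophage markers measured had a positive mean change (median 0.34, 0 called by limma, 2 at an unadjusted p under 0.05), with a summed log2 signal of 11.1 to 12.5 prepartum and 11.1 to 13.6 postpartum. Of 9 tested endothelium markers 6 had a positive mean change and 2 rose past the test (median 0.25, 4 at an unadjusted p under 0.05), with a summed log2 signal of 11.7 to 12.2 prepartum and 11.1 to 12.5 postpartum. All 12 fibroblast markers were tested, and 7 had a negative mean change (median -0.03, 0 called by limma, 1 higher at an unadjusted p under 0.05). Their summed log2 signal ran from 15.0 to 15.4 prepartum and from 14.4 to 15.5 postpartum. Of 12 epidermis markers 8 were measured and 2 passed the filter (summed log2 signal 7.92 to 13.4 prepartum and 8.01 to 8.49 postpartum). By medians centred in the same way, the postpartum array of cow 384 was the lowest of all arrays for adipocyte (-1.76), endothelium (-0.80) and fibroblast (-0.61) markers. The part of these cell types in the changes below was not tested. For 12 of the 27 genes the mean change moved by over 1.5 times or turned its sign without cows 384 and 387, and both values are given for these.

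Between late pregnancy and early lactation, SSR3 alone of the 27 tested ER genes passed limma's adjusted test. Missing that test does not show that a gene was unchanged. SSR3 encodes the gamma subunit of the translocon-associated protein complex (TRAP), which sits beside the Sec61 channel and assists the entry of some secretory proteins. It was 1 of 27 genes that passed limma's test at an adjusted p under 0.05, and it was lower postpartum. Of all 6984 genes tested 3.71% passed, 2.16% lower and 1.55% higher, so 1 call among 27 is close to the share among all genes. Of the 27 genes, 20 had a negative mean change (median of the 27 genes -0.11), against 47.4% of all genes (median 0.01). At an unadjusted p under 0.05, 8 genes were lower (29.6%) and 0 were higher, where 10.5% of all genes were lower and 10.3% higher. The 8 were SSR3, CANX, P4HB, HSP90B1, DNAJB9, SEC61B, SPCS1 and RPN2. For each of these 8 the interval of limma's fit lay wholly below 0. That interval comes from the same fit as the unadjusted p by which they were picked. It therefore restates that p and adds no evidence.

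**Figure D1:**
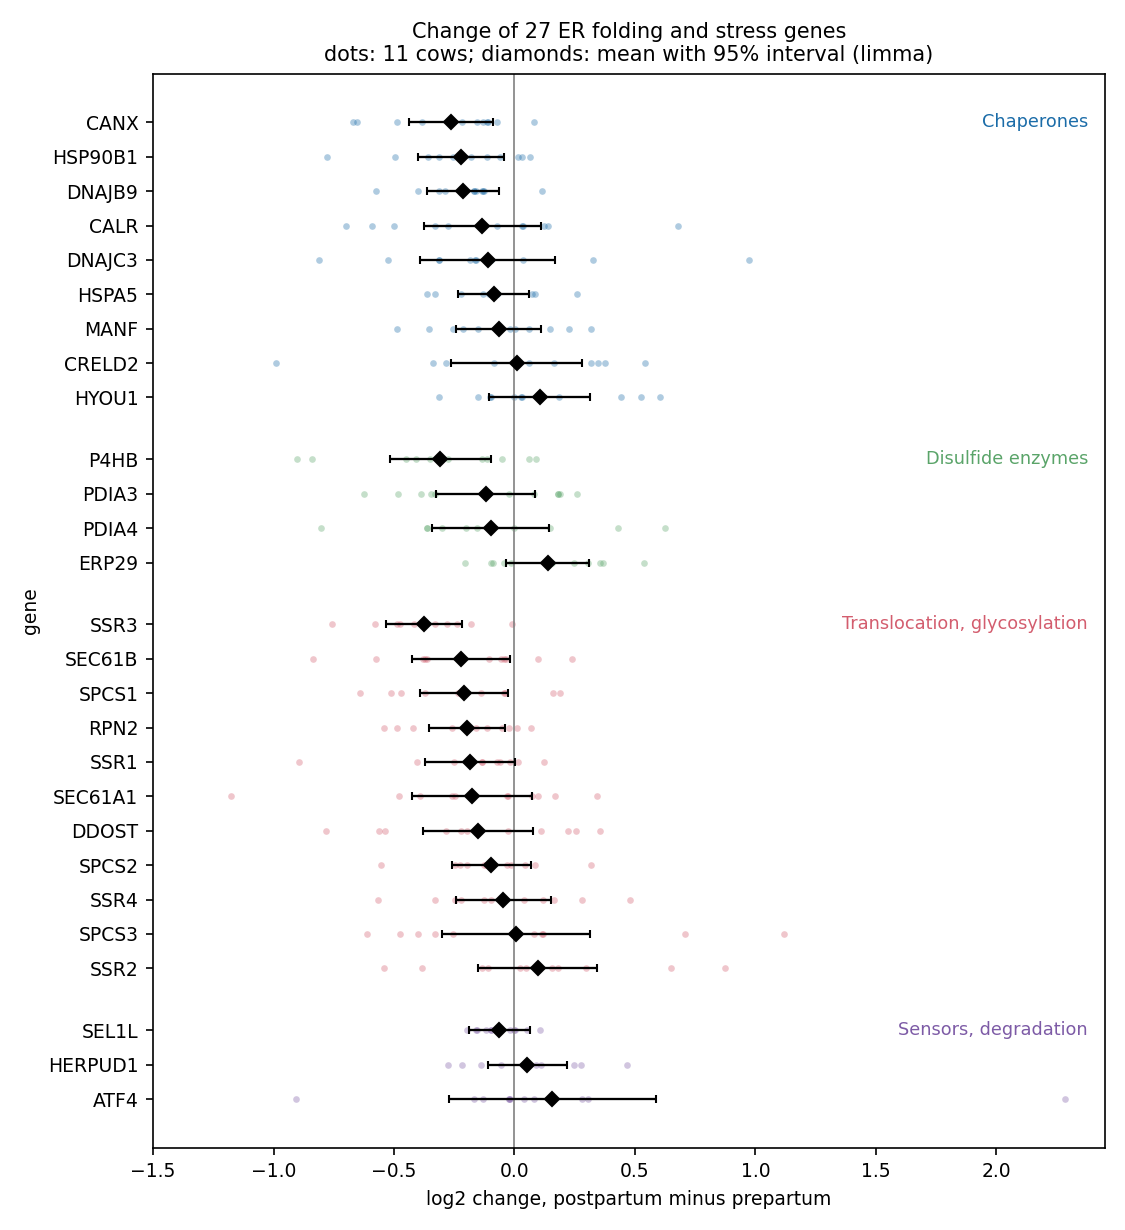
Change in log2 value, postpartum minus prepartum, of the 27 tested genes in 4 groups by role, with 1 dot per cow (11 cows) and a diamond with the 95% interval of limma's fit. SSR3 lies lowest at -0.38 with all 11 cows below 0, and 24 of the 27 intervals stay within -0.5 and 0.5, while ATF4 has single cows at 2.28 and -0.91.

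Among the translocation and glycosylation genes, SSR3 had log2 values of 9.85 at the lowest, 9.99 at the median and 10.15 at the highest array prepartum, and of 9.33, 9.64 and 9.84 postpartum. Every postpartum array lay below every prepartum array, a separation found in 4 of the 6984 genes (0.0573%). The change was negative in 11 of 11 cows, which 1.33% of all genes shared, and ran from -0.76 in cow 387 to -0.01 in cow 341. The mean change was -0.38 (SE 0.07, limma adjusted p = 0.0131), a 1.30-fold fall with a 95% interval from 1.16 to 1.45. A dimmer SSR3 probe set also passed, so that 2 of the 32 probe sets fell and 0 rose, where 3.43% of all tested probe sets passed and 1.98% fell. Its log2 values ran from 8.46 to 9.30 prepartum and from 7.29 to 8.90 postpartum. That probe set fell by 0.62 (SE 0.12, limma adjusted p = 0.0116), with 10 of 11 cows lower and the lowest changes in cows 387 (-1.36) and 384 (-1.27); without these cows it fell by 0.46 (limma adjusted p = 0.00646). The exact sign-flip test over cows gave p = 0.000977 for the brighter probe set, the smallest value that 11 cows allow (adjusted p = 0.0494).

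The SSR3 change was -0.32 without cows 384 and 387 (limma adjusted p = 0.012) and -0.38 with the muscle markers as a covariate (limma adjusted p = 0.0103). Leaving out single cows gave -0.41 to -0.34, with limma adjusted p from 0.00878 to 0.0368. The call was lost without cows 330, 331, 341 and 382, whose prepartum arrays have raised epidermis markers (change -0.46, limma adjusted p = 0.131), where 6 of 14410 probe sets passed in place of 494. It was also lost within each of the array sets that a code in the titles defines, at -0.30 in set 1 (5 cows, limma adjusted p = 0.202) and -0.44 in set 2 (6 cows, limma adjusted p = 0.25), where 69 and 0 probe sets passed. The median of the 8 measured epidermis markers, centred as above, was 3.81 in cow 341 and 2.55 in cow 382 prepartum. It was only 0.72 in cow 331 and 0.67 in cow 330. The part of epidermis RNA in the change was not tested.

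The other TRAP subunits did not pass. SSR1, the alpha subunit, had 2 bright probe sets with changes of -0.18 (SE 0.09, limma adjusted p = 0.255) and -0.31 (SE 0.08, limma adjusted p = 0.0561), and it was lower in 9 and 10 of 11 cows. Cow 384 had the lowest change in both probe sets, -0.89 and -0.91, and without cows 384 and 387 the changes were -0.12 and -0.23. SSR2, the beta subunit, had log2 values of 9.45, 10.22 and 10.37 prepartum and of 9.83, 10.31 and 10.80 postpartum. Its groups overlapped across most of their range, and its change of 0.10 had a 95% interval from -0.15 to 0.34 (0.16 without cows 384 and 387). SSR4, the delta subunit, had a change of -0.05 with an interval from -0.24 to 0.15 (-0.10 without cows 384 and 387). Whether SSR3 changed more than its partner subunits was not tested.

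**Figure D2:**
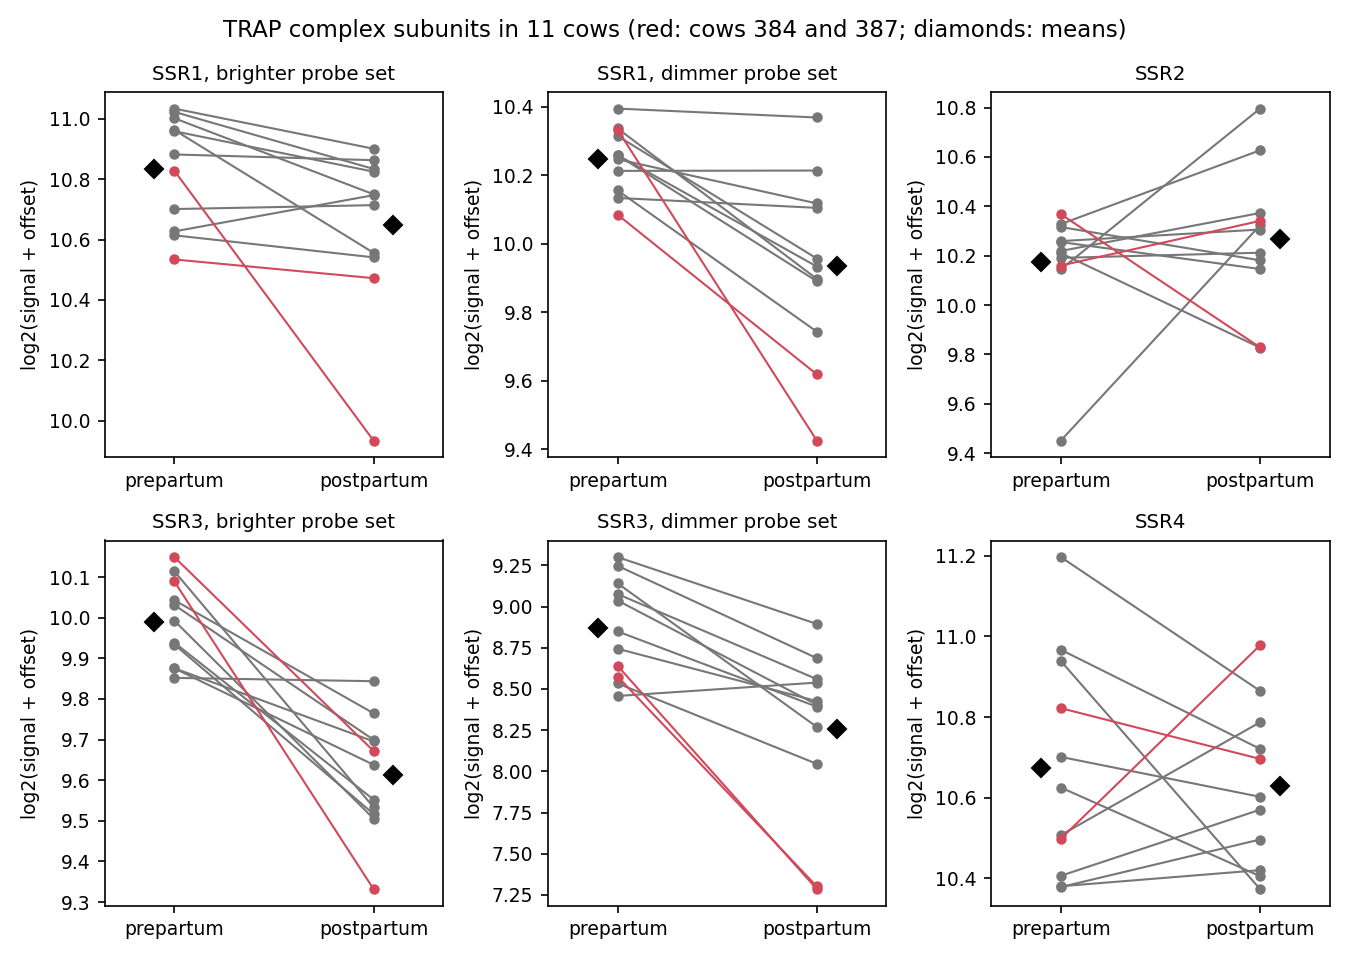
Log2 values of the TRAP subunits in the prepartum and postpartum array of each of 11 cows, joined by lines, for every tested probe set of SSR1, SSR2, SSR3 and SSR4; red lines are cows 384 and 387 and diamonds are group means. Both SSR3 probe sets fall in nearly every cow, and the brighter one has no overlap between 9.85 and above prepartum and 9.84 and below postpartum, whereas the SSR2 and SSR4 lines cross.

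The Sec61 channel itself had changes that did not pass. SEC61B, its beta subunit, had log2 values of 9.62, 9.92 and 10.08 prepartum and of 9.14, 9.75 and 10.18 postpartum. The postpartum array of cow 384 was the lowest, and both groups reached similar highest values. The change of SEC61B was -0.22 (SE 0.09, limma adjusted p = 0.211, 9 of 11 cows lower) and -0.14 without cows 384 and 387. SEC61A1, the pore-forming alpha subunit, had a change of -0.17 over 11 cows and of -0.09 without cows 384 and 387, since cow 384 alone changed by -1.18.

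Signal peptidase removes the signal peptide, and oligosaccharyltransferase attaches the N-linked sugar. The peptidase subunit SPCS1 had a change of -0.21 (95% interval -0.39 to -0.03, limma adjusted p = 0.188), and SPCS2 had -0.10 (-0.062 without cows 384 and 387). SPCS3, another subunit, had log2 values of 6.37, 6.97 and 7.38 prepartum and of 6.23, 6.89 and 7.48 postpartum in its brighter probe set. The SPCS3 groups overlapped over most of their ranges, with a change of 0.01 (-0.0048 without cows 384 and 387) that ran from -0.61 in cow 360 to 1.12 in cow 330. A dimmer SPCS3 probe set had a change of 0.30 (limma adjusted p = 0.143, 9 of 11 cows higher), so the probe sets disagree. RPN2 and DDOST, subunits of the oligosaccharyltransferase, had changes of -0.20 (limma adjusted p = 0.156) and -0.15 (limma adjusted p = 0.474). DDOST changed by -0.78 in cow 384, and its mean was -0.066 without cows 384 and 387.

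None of the 9 tested chaperones and their partners passed, where 3.71% of all genes did. Of the 9, 3 were lower at a limma unadjusted p under 0.05, against 10.5% of all genes. HSPA5, the BiP chaperone that binds unfolded chains and holds the stress sensors inactive, is the usual marker of the unfolded protein response. HSPA5 had log2 values of 9.97, 10.32 and 10.57 prepartum and of 10.03, 10.23 and 10.45 postpartum. The postpartum range lay within the prepartum range. Its change was -0.09 (SE 0.07, limma adjusted p = 0.533), and the 95% interval allowed a rise of at most 1.04-fold and a fall of at most 1.18-fold. A dimmer HSPA5 probe set had a change of -0.25 (limma adjusted p = 0.306), with cow 330 at -1.17 against -0.13 in the brighter one. The 95% interval of the dimmer probe set was wider, from -0.53 to 0.03, and allowed a fall of at most 1.44-fold.

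HSP90B1, the GRP94 chaperone of integrins and other client proteins, had log2 values of 10.12, 10.27 and 10.82 prepartum and of 9.85, 10.08 and 10.26 postpartum. The postpartum median lay below the lowest prepartum array, with overlap above it, and the change was -0.22 (SE 0.08, limma adjusted p = 0.152, 8 of 11 cows lower). CANX, the membrane lectin calnexin that retains unfinished glycoproteins, had log2 values of 9.89, 10.14 and 10.51 prepartum and of 9.57, 9.90 and 10.22 postpartum. The upper part of the postpartum range overlapped the prepartum one. The CANX change was -0.26 (SE 0.08, limma adjusted p = 0.0878), negative in 10 of 11 cows and lowest in cows 384 (-0.67) and 341 (-0.65). Among the alternatives run, it passed only when cow was treated as a random effect (limma adjusted p = 0.0447), where 5.5% of all genes passed. CALR, the soluble lectin calreticulin, had a change of -0.13 and ran from -0.70 in cow 341 to 0.68 in cow 360.

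DNAJB9, a cochaperone of BiP that is induced by XBP1, had a change of -0.21 (SE 0.07, limma adjusted p = 0.108) and was lower in 10 of 11 cows. DNAJC3, another BiP cochaperone, had a change of -0.11 with a 95% interval from -0.39 to 0.17. Being lower in at least 10 of 11 cows was shared by 3 of the 27 genes (SSR3, CANX and DNAJB9) and by 5.28% of all genes. HYOU1, which exchanges the nucleotide of BiP, had log2 values of 5.88, 6.46 and 6.98 prepartum and of 6.06, 6.49 and 7.18 postpartum. HYOU1 overlapped between the groups over most of its range (change 0.10, limma adjusted p = 0.602), and its interval allowed a rise of at most 1.24-fold, the largest among the 9. CRELD2 and MANF, which are secreted under ER stress, had changes of 0.01 (95% interval -0.26 to 0.28) and -0.07 (-0.24 to 0.11). CRELD2 measured 5.63, 5.99 and 6.65 prepartum and 5.66, 6.10 and 6.53 postpartum, a range within the prepartum one, and its change was 0.037 without cows 384 and 387. SDF2L1, a partner of the BiP cycle, lay under the filter; without a filter its change was -0.23 (limma adjusted p = 0.59).

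Disulfide enzymes form and rearrange the bonds between cysteines. P4HB, the founding protein disulfide isomerase and a subunit of the collagen prolyl hydroxylase, had log2 values of 10.44, 10.75 and 10.87 prepartum and of 9.94, 10.35 and 10.75 postpartum. The postpartum median lay below the lowest prepartum array. P4HB had a change of -0.31 (SE 0.10, limma adjusted p = 0.0997, 9 of 11 cows lower), with cows 384 (-0.90) and 330 (-0.84) lowest, and passed with cow as a random effect (limma adjusted p = 0.038). PDIA3, which folds glycoproteins held by calnexin and calreticulin, measured 9.44, 9.998 and 10.36 prepartum and 9.10, 9.77 and 10.36 postpartum. PDIA3 reached nearly the same highest value in both groups, and its change was -0.12 (limma adjusted p = 0.535). PDIA4 had changes of -0.10 and -0.06 in its 2 tested probe sets, and of -0.048 and -0.010 without cows 384 and 387. ERP29, a PDI-fold protein without the catalytic cysteine pair, measured 8.54, 9.03 and 9.28 prepartum and 8.55, 9.09 and 9.54 postpartum. The ERP29 change of 0.14 (95% interval -0.03 to 0.31, limma adjusted p = 0.364) was the only positive mean among the 4 tested disulfide enzymes.

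ATF4, the transcription factor of the integrated stress response, had log2 values of 9.67, 9.80 and 10.91 prepartum and of 9.64, 9.96 and 12.15 postpartum. Its groups overlapped except for single arrays: the highest were cow 384 postpartum and cow 387 prepartum, the arrays with the highest muscle markers. ATF4 was at or below 10.12 in the other 20 arrays, which include the postpartum array of cow 386. The change was 0.16 over 11 cows (SE 0.20, limma adjusted p = 0.715) and 0.04 without cows 384 and 387 (SE 0.07, limma adjusted p = 0.771). In the arrays that were highest for ATF4, HSPA5 measured 10.08 and 10.24, within its range in the others. The part of muscle RNA in these ATF4 values was not tested.

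**Figure D3:**
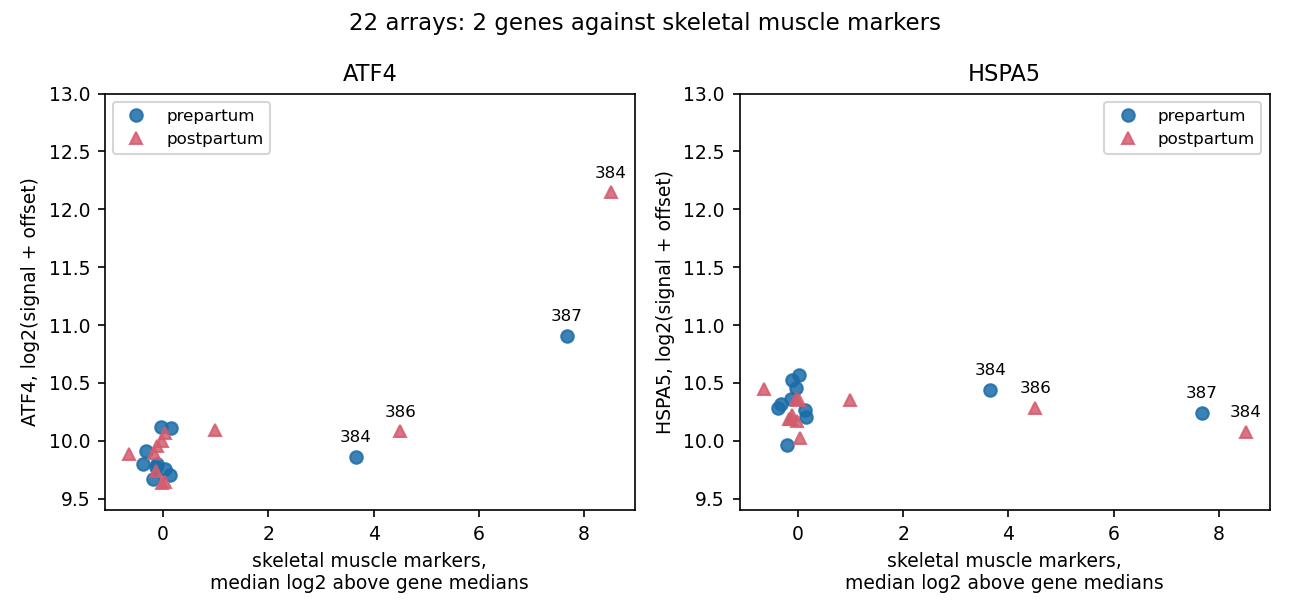
Log2 values of ATF4 (left) and HSPA5 (right) in 22 arrays against the median of 13 skeletal muscle markers, each gene centred on its median over arrays (log2 units); circles are prepartum and triangles postpartum, and cow numbers mark the 4 arrays with raised markers. ATF4 reaches 12.15 and 10.91 at marker levels of 8.51 and 7.67, while HSPA5 stays between 9.97 and 10.57.

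HERPUD1 and SEL1L serve the degradation of misfolded proteins from the ER. HERPUD1, a membrane protein strongly induced by ER stress, measured 9.22, 9.43 and 9.63 prepartum and 9.16, 9.49 and 10.01 postpartum. Cow 384 gave the highest HERPUD1 value, and the change was 0.05 (95% interval -0.11 to 0.22, limma adjusted p = 0.745), or 0.0079 without cows 384 and 387. SEL1L, the adaptor of the HRD1 ubiquitin ligase, measured 9.01, 9.23 and 9.32 prepartum and 9.01, 9.15 and 9.33 postpartum. It was the steadiest of the 27 genes, with an SD of 0.10 for the change over 11 cows against 0.77 for ATF4, and its change was -0.06 (95% interval -0.19 to 0.06).

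The ATF4 targets could be described only weakly. TRIB3, a pseudokinase that restrains ATF4 signalling, and CHAC1, which degrades glutathione, lay under the filter, and ASNS was not measured here. TRIB3 had log2 values of 4.39, 5.02 and 5.34 prepartum and of 3.67, 4.73 and 5.38 postpartum. Fit without a filter, its change was -0.25 (95% interval -0.66 to 0.16, limma adjusted p = 0.599). The 2 CHAC1 probe sets disagreed in sign, at -0.46 (limma adjusted p = 0.313) and 0.30 (limma adjusted p = 0.385). Fit without a filter, none of the 14 dim probe sets of the 36 genes passed limma's test, where 0.312% of all probe sets under the filter passed. Of the 14, 1 had a limma unadjusted p under 0.05, the CHAC1 probe set at -0.46 (p = 0.0422), against 7.91% of all probe sets under the filter. Among the 27 tested genes, 24 had an interval wholly between -0.5 and 0.5.

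The roles were set side by side by the median change of their genes in each cow. In each cow the median change of 11 translocation and glycosylation genes was below 0, from -0.54 in cow 384 to -0.01 in cow 387 (mean of cow medians -0.15, SD 0.16, n = 11). It was close to 0 in cows 341, 346, 382, 386 and 387, from -0.029 to -0.0051. In cow 384 the median of all genes was itself -0.14. The median of 9 chaperones was below 0 in 9 of 11 cows, from -0.49 in cow 347 to 0.08 in cow 360 (mean -0.13, SD 0.16, n = 11). The 4 disulfide enzymes had a median below 0 in 8 of 11 cows (mean -0.14, SD 0.25, n = 11). The 3 genes of the sensor and degradation group had a mean of 0.02 (SD 0.19, n = 11) with 6 of 11 cows below 0, and all 6984 genes had a mean of 0.00 (SD 0.06, n = 11) with 5 of 11. Without cows 384 and 387 the means were -0.12 for translocation, -0.11 for chaperones, -0.11 for disulfide enzymes and -0.02 for sensors. These medians are descriptions of chosen genes and carry no test.

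**Figure D4:**
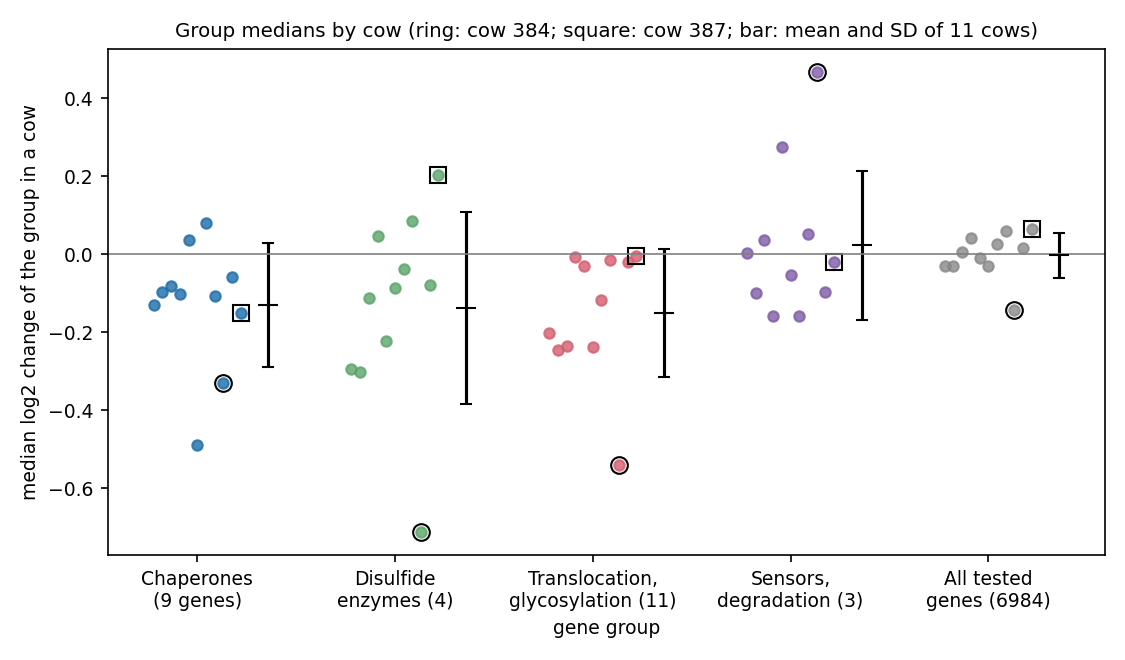
Median log2 change of each gene group in each of 11 cows (dots), with the mean and SD over cows as bars; a ring marks cow 384 and a square cow 387. Translocation and glycosylation genes lie below 0 in 11 of 11 cows and chaperones in 9 of 11, cow 384 is the lowest for 3 of the 5 groups, and the medians of all genes stay within -0.14 to 0.06.

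The cows differed in how the genes moved, and HSPA5 was used as the point of reference. The change of HSPA5 was related to that of each of the 26 other genes over 11 cows, and 20 of the correlations were positive (median r 0.36; 17 positive without cows 360 and 384, 19 without cows 384 and 387), but none passed after Benjamini-Hochberg adjustment over the 26. The largest were PDIA4 (Pearson r = 0.70, permutation p = 0.0164, adjusted p = 0.202; Spearman rho = 0.81, permutation p = 0.00392, adjusted p = 0.102) and RPN2 (r = 0.70, permutation p = 0.0153, adjusted p = 0.202; rho = 0.67, permutation p = 0.0271, adjusted p = 0.235). Without cows 360 and 384, which were farthest from the median HSPA5 change, r was 0.86 for PDIA4 and 0.44 for RPN2. HERPUD1 went the other way (r = -0.67, permutation p = 0.0233, adjusted p = 0.202; rho = -0.72, permutation p = 0.0163, adjusted p = 0.213), and r was -0.27 without those cows. Changes of different genes in a cow share both of its arrays. The share of positive correlations with HSPA5 among all genes was not computed, so the count of 20 cannot be called particular to these genes.

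The array sets gave no detectable difference. None of the 27 genes passed limma's interaction test of the postpartum effect with array set, where 0% of all genes passed, and 0 of the 27 had an unadjusted p under 0.05, against 3.01% of all genes. SSR4 differed most by p, at -0.22 in set 1 and 0.10 in set 2 (limma unadjusted p = 0.0747, adjusted p = 0.997).

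The wider pathway was covered by 6 lists of genes outside the 36. Of 102 tested genes in these lists 0 passed limma's test, and 18 had an unadjusted p under 0.05 (17.6%, against 20.8% of all genes), 4 higher and 14 lower. An ordinary paired test and the exact sign-flip test (2.28% and 2.29% of all genes called) each called SRP19 alone, a subunit of the signal recognition particle, which was lower in 11 of 11 cows (change -0.17). Without cow 384 alone 4 passed (FKBP2, EDEM2, BCAP31 and VLDLR), where 7.53% of all genes passed. Without cows 384 and 387 ATF5 passed too, where 8.2% of all genes passed; these genes are named after their values were seen.

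Other folding enzymes had a negative mean change in 11 of 15 (median -0.14), the largest in the collagen helpers FKBP14 (-0.43, limma adjusted p = 0.13) and SERPINH1 (-0.41, limma adjusted p = 0.158). FKBP2, named above and 1 of the 4 positive genes, had the lowest adjusted p of this list. Its change was 0.31 (limma adjusted p = 0.061, 10 of 11 cows higher). Other translocation and glycosylation genes were negative in 15 of 21 (median -0.08), with BCAP31, an ER export and quality control protein, at -0.38 (limma adjusted p = 0.0815) and the oligosaccharyltransferase subunit MAGT1 at -0.32 (limma adjusted p = 0.127). Cow 384 had the lowest change for BCAP31 (-1.35) and MAGT1 (-1.33), and also for FKBP14 (-1.43) and SERPINH1 (-1.52). BCAP31 is among the genes that passed without that cow. Transport from the ER to the Golgi was negative in 16 of 22 (median -0.05), with the vesicle fusion protein SEC22B at -0.35 (limma adjusted p = 0.0881) and the cargo receptor TMED7 at -0.22 (limma adjusted p = 0.155).

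Other ATF4 targets split in direction, with 8 of 22 positive and 14 negative (median -0.06). ATF5, a relative of ATF4, had -0.57 (limma adjusted p = 0.158), and EIF4EBP1, which restrains translation, had 0.43 (limma adjusted p = 0.148). In the degradation list 8 of 13 were positive (median 0.02), with EDEM2, which trims mannose from misfolded glycoproteins, at 0.34 (limma adjusted p = 0.0974) and UBE2G2, a ubiquitin-conjugating enzyme, at 0.20 (limma adjusted p = 0.367). Stress sensors and feedback genes were positive in 5 of 9 (median 0.04), with ATF3 at 0.28 (limma adjusted p = 0.612) and PPP1R15A, which restores translation after stress, at 0.25 (limma adjusted p = 0.18).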

How the data were processed

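The data were 1 table of Affymetrix bovine array signals for 22 arrays. The submitters' processing notes name MAS5 (version and settings not given in the sources used here). Linear intensity values were what the authors deposited, with a trimmed mean of 125 on every array after removal of 2% at each end. Precision is limited by how many arrays there were. The 112 control probe sets were left out. Of 24016 bovine probe sets 13292 had 1 gene symbol, 86 several and 10638 none. Symbols were updated through the Entrez identifier from a RefSeq table of the ARS-UCD2.0 assembly, and no coordinates were used.

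Signals were taken as log2(signal + 7.78), where the offset is the 20th percentile of an array's signals (median of the arrays). Fold changes on this scale understate those of dim genes. The 14410 probe sets at or above the 40th percentile of mean log2 value were tested with limma (version 3.58.1, R 4.3.3). The model held cow as a block, the prior variance followed mean intensity, and p-values were adjusted by Benjamini-Hochberg over all tested probe sets; calls are those under 0.05. Unless another test is named, a gene's adjusted p is limma's. Intervals are 95% intervals of that fit. The test was tried on simulated data with independent noise in each probe set and array. Shifts shared by many probe sets of a single array were not simulated, so the trial does not cover them.

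The titles give the cow number, and the series design describes the same animals at both times. After subtraction of group means, arrays of a cow correlated at 0.18 to 0.43, except the pair labelled cow 387 (-0.095), whose pairing is in doubt. That pair was kept. Its centred median of muscle markers was 7.67 prepartum and -0.02 postpartum, and the part of muscle RNA in its correlation was not tested. In 6 of 11 cows, 387 among them, an array of another cow correlated higher than the cow's own, and cow 384 had 0.21 with its own and 0.635 with another's. The array set is a code in the titles whose meaning is not stated. Permutation tests were two-sided, with 100000 resamples for correlations and all sign changes for the sign-flip test.

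Alternatives were other filters, offsets, normalization, array weights, blocks, tests, array sets, a muscle covariate and fits without cows. The genes, the lists and the tests were chosen with earlier results of these data known. Named genes were chosen by rule: all 36, with values by group for HSPA5, HSP90B1, SEC61B and ATF4, for called genes and for the 2 largest positive and negative mean changes of each role, and in the other lists called genes and the 2 largest mean changes. No sequences were used here. The plots used Python 3.11.15 and matplotlib 3.10.9.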

Additional observations from a re-analysis of the deposited data

Results flagged for a closer look

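Within the array sets, 54 groups of 5 or 6 cow changes were examined for a single cow far from the rest, of which chance marks about 1 in 20. CANX in set 2 had cow 384 at -0.67, against -0.22 in the next lowest of 6 cows. SPCS3 in set 2 had cow 330 at 1.12, against 0.12 in the next highest of 6 cows. The postpartum array of cow 384 had high muscle markers. It was also the lowest of all arrays for the centred medians of adipocyte (-1.76), endothelium (-0.80) and fibroblast (-0.61) markers. The part of these cell types in the CANX value was not tested.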

How the results depend on the processing

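Array number and dim signals limit the small changes seen here, and the genes under the filter could not be judged. The count of 1 called gene of 27 (SSR3) became 0 within array set 1 (0.544% of all genes called), 0 within array set 2 (0%), 0 without cows 330, 331, 341 and 382 (0.0573%), and 3 with the replicate block as a random effect (SSR3, CANX and P4HB; 5.5%); it was 1 without the replicate block (2.69%), and 1 in each of the 11 fits without a single cow. Leaving the block out changed no call of the 27 genes. The cause of the lost calls was not tested; each of those fits has fewer samples. The count of 0 of 102 other pathway genes became 6 with array weights (8.19% of all genes called), 1 with the exact sign-flip test (2.29%), 1 with an ordinary paired test (2.28%), 1 with the muscle covariate (4.88%) and 5 without cows 384 and 387 (8.2%), and ran from 0 to 4 over fits lacking 1 cow (4 without cow 384, 7.53%). Signs of means near 0, none of them called, turned as follows. CRELD2 was -0.069 in array set 1, -0.0085 after quantile normalization, -0.0020 without cows 330, 331, 341 and 382, and from -0.043 to 0.11 over fits lacking 1 cow. SPCS3 was -0.054 with array weights, -0.0054 after quantile normalization, -0.20 without cows 330, 331, 341 and 382, -0.0048 without cows 384 and 387, and from -0.10 to 0.068 over fits lacking 1 cow. HERPUD1 was -0.084 in array set 1, SSR2 -0.032 without cows 330, 331, 341 and 382, SSR4 0.10 in array set 2 and from -0.10 to 0.0062 over fits lacking 1 cow, and ATF4 from -0.056 to 0.26 over the same fits. Of the 27 genes, 20 were negative over 11 cows and 19 to 23 in the 6 other settings compared. Role group medians moved by less than 1 SD, and the count of calls stayed 0 for the interaction with array set and for the correlations with HSPA5, though single correlations and their signs moved.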
